A study of Mus musculus with 4 samples.

Results

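Skeletal muscle contracts through the sarcomere, a repeating unit in which myosin thick filaments slide along actin thin filaments anchored in Z-discs and held in register at the M-band. Its proteins are made in large amounts by differentiated fibres, whereas a resting satellite cell, the stem cell that lies against the fibre, has no sarcomeres. Many of these proteins come in a fast and a slow form, made from separate genes in fibres of different speed. The set described here is 47 genes of the adult sarcomere. A gene was taken when at least 1 array probe set (a group of probes read as 1 value) was annotated to it and to no other gene. This gave 46 genes, read by 93 probe sets, out of 18193 genes on the array. No probe set had Xirp2 as its only symbol in the annotation used here, so that gene is not analysed here. The genes were grouped by compartment: 11 of the thick filament, 13 of the thin filament, titin, 2 of the M-band, 13 of the Z-disc core and 6 measured genes of the Z-disc periphery.

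The series is about the self-renewal of muscle stem cells with age. It compared satellite cells of young C57BL/6 mice, 3 to 6 months old, with those of aged mice, 20 to 25 months old, and the sample labels name the strain as C57BL/6J. Cells of the hindlimb muscles were pooled from several mice (4 to 8 per pool in the series text, 6 to 8 in the sample text) and selected by flow cytometry for syndecan-4, a proteoglycan of their surface. There were 2 independent pools per age and 1 Affymetrix array per pool, and pooling averages over the mice, so the spread between single mice was not measured. RNA went through 2 rounds of T7 amplification.

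The deposited numbers are read here as log2, with higher meaning more RNA, although neither is stated, and each is relative to the median of its probe set over the 4 arrays. A value of 1 therefore stands for 2-fold above that median, and no gene's level can be set against another's. With 4 arrays, this centring makes the middle 2 values of a probe set mirror each other around 0. A gene's value is the mean of its probe sets. Values are listed in the order young 1, young 2, aged 1, aged 2, and a difference is aged minus young ± the standard error of the limma fit (n = 2 pools per age). Presence of a marker cannot be judged without levels. The satellite cell factor Pax7 stood at -1.39, -1.24, 1.08 and 0.90 and Sdc4, which encodes the protein used for the sort, at -0.18, -1.47, 0.38 and 0.41, both higher in the aged pools. Among all 15 satellite cell markers, however, 6 were lower (46.2% of all genes) and 9 higher. The ages overlapped in 11 (11498 of all 18193 genes), and the median difference was 0.09. Xist, transcribed from the inactive X chromosome of female cells, stood at -3.48, -2.67, 3.21 and 2.97, higher in both aged pools. The labels used here give no sex, so a different mix of sexes and age cannot be told apart.

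Sarcomere genes were lower in the aged pools almost throughout. The difference was below 0 in 43 of the 46 genes, where 46.2% of all genes had a negative difference. The median difference was -2.40, or 5.29-fold lower, against 0.05 for all genes, and it was -2.27 between the pools numbered 1 and -2.38 between those numbered 2. Both aged pools lay below both young pools for 40 of 46 genes (16.9% of all genes), and 28 were at least 4-fold lower (2.43% of all genes) and 14 at least 8-fold (0.654% of all genes). With limma and Benjamini-Hochberg adjustment over all genes, 0 of 46 members and 0 of 18193 genes (0%) passed 0.05. At an unadjusted p under 0.05, 1645 of all genes were counted. Under that looser mark 36 of the 46 members were lower (6.19% of all genes) and 1 was higher (2.85% of all genes). An adjusted p under 0.10 was reached by 6 members, all lower (0.181% of all genes): Tmod4, Myoz1, Lmod2, Cmya5, Neb and Myoz2. No member reached it on the higher side (0.033% of all genes). The count of 6 was 0 without any 1 of the 4 pools, young 1, young 2, aged 1 or aged 2. With a variance trend on the mean value added to the limma fit, 20 members and 221 genes passed 0.05, although centring leaves no level for such a trend to follow.

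**Figure D1:**
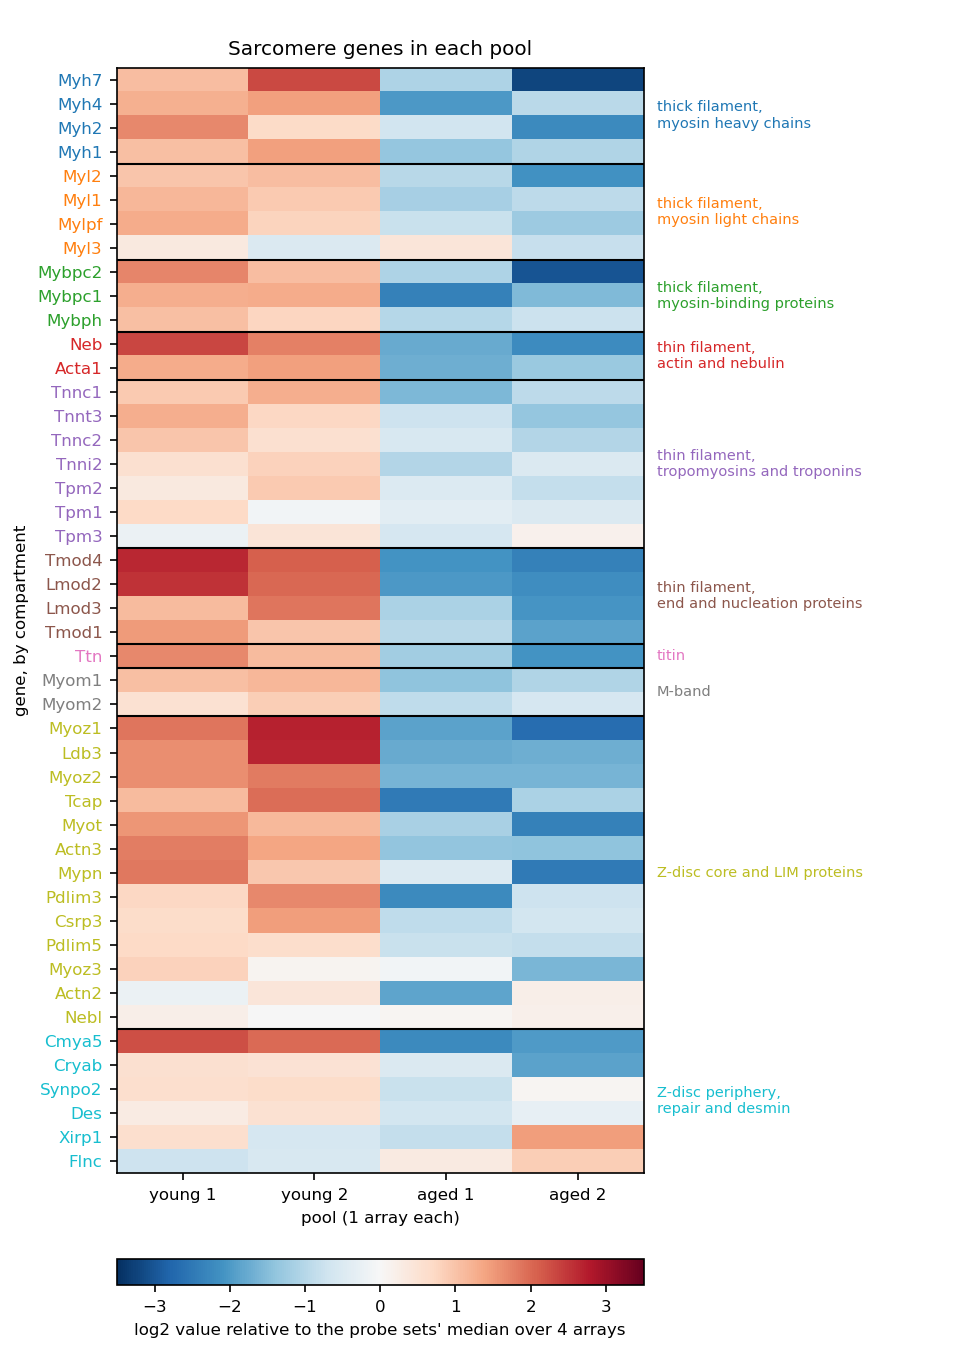
Relative log2 value of each measured sarcomere gene (rows, grouped by compartment) in each pool (columns, 1 array each), with red above and blue below the probe sets' median over the 4 arrays. The young columns are red and the aged columns blue for most genes, with Myl3, Tpm1, Tpm3, Actn2, Nebl, Synpo2 and Xirp1 mixed and Flnc the other way round.

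The pools of an age differed among themselves by less than the ages did. Over the 46 genes, young 1 and young 2 had a root mean square difference of 0.594 and aged 1 and aged 2 one of 1.002, while any young pool set against any aged one gave 2.53 to 2.81. Over all genes this measure was 0.841 for the young pair, 0.911 for the aged pair and 0.964 to 1.07 across ages. Young 1 was above young 2 in 23 of 46 members and aged 1 above aged 2 in 24, so neither pool of an age was uniformly higher. The median over members was 1.07 in young 1, 1.03 in young 2, -1.06 in aged 1 and -1.19 in aged 2.

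Markers of other cell types are given beside these values, and with limma none of them passed an adjusted p of 0.05. For comparison, 46.2% of all genes were lower and 9789 of 18193 higher. At an unadjusted p under 0.05, 6.19% of all genes were lower and 2.85% higher. Both aged pools lay below both young ones in 16.9% of all genes and above them in 19.9%. Of 15 genes of mature fibres that lie outside the sarcomere, 15 were lower, 12 of them at an unadjusted p under 0.05, with a median of -2.87, and the ages were apart in 14; the median of the list was 1.20 and 1.41 in the young pools and -1.66 and -1.20 in the aged pools, and the calcium release channel Ryr1 was the second lowest at -4.45 ± 0.42. Macrophage markers were lower in 9 of 10 genes (4 at an unadjusted p under 0.05), with a median of -1.10. Endothelial markers were lower in 8 of 10 (2 at that mark), with a median of -0.41, and the ages overlapped in 8. Markers of smooth muscle and pericytes were higher in the aged pools in 12 of 12 (3 at that mark), with a median of 0.91. Acta2, Tagln, Cnn1 and Myh11 of this list are also among the cytoskeletal counterparts below, and Notch3 is among the satellite cell markers. Markers of fibro-adipogenic progenitors were higher in 11 of 12 (1 at that mark), with 0.52. T cell markers were higher in 6 of 6 (3 at that mark), with 1.04, and Schwann cell markers in 4 of 5 (1 at that mark), with 0.98. The part of these cell types in the lower sarcomere values was not tested. Whether the pools held other cells or fibre fragments cannot be judged without levels. If they did, fewer of them and less RNA in each could not be told apart. The 3′ minus 5′ difference of the control probe sets for Gapdh was 0.612 and 0.523 in the young pools and -0.523 and 1.495 in the aged pools, so the aged pools lay on either side of the young ones. For beta-actin it was -0.177 and -0.262 in the young and 0.189 and -0.020 in the aged pools, and for pyruvate carboxylase 0.259 and 0.0093 against -0.0093 and -0.950, so both controls differed without overlap, in opposite directions. For the transferrin receptor and 18S RNA controls the ages overlapped. The part of RNA quality in the sarcomere values was not tested.

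Sequence upstream of the genes is shown as background, since muscle genes are known to be bound there by the factors MEF2, SRF and the E-box-binding MyoD family. The part of these factors in the lower values was not tested. RefSeq promoter windows (GRCm38.p6, 250 bases before to 50 after the annotated start) were at hand for 35 of the 47 listed genes, in 45 windows, since some genes have several starts. Both strands were searched for TATAAA, the E-box CANNTG, the MEF2 motif and the CArG box, the SRF motif. The searched motifs may overlap one another. The MEF2 motif was in 4 of the 45 windows (8.89%, against 0.557% of all 32851 windows), those of Myoz2, Synpo2, Ttn and Xirp2. The CArG box was in 7 windows of 6 genes (15.6% of windows against 1.63%), namely Acta1, Ldb3, Myh4, Myl3, Myom1 and Nebl. TATAAA was in 22.2% of the windows against 13.6%, and the E-box in 80.0% against 72.3%. These are matches of letters in a short window and show no binding. Genes with a CArG box ran from Ldb3 at -3.88 ± 0.47 to Nebl at 0.03 ± 0.36. Measured genes with a MEF2 motif ran from Myoz2 at -3.35 ± 0.36 to Synpo2 at -0.97 ± 0.44, whose 4 probe sets lay between -3.20 and 0.93. Whether a motif goes with the size of the difference was not tested.

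Of 6 genes the 250 bases before the start are printed 5′ to 3′ on the gene's strand, with every match in capitals (a match on the other strand reads as its reverse complement). Skeletal actin and fast troponin C were named with the design, and the other 4 were chosen after their values and motifs were seen: 1 fast myosin, the carriers of a MEF2 match with the lowest values, and Flnc, the gene whose aged pools were higher. Because of this choice, the printed sequences cannot show whether motifs go with direction. The other window of Flnc is not printed.
Acta1, chr8:123894776-123895025, minus strand, with a CArG box, 2 E-boxes and TATAAA: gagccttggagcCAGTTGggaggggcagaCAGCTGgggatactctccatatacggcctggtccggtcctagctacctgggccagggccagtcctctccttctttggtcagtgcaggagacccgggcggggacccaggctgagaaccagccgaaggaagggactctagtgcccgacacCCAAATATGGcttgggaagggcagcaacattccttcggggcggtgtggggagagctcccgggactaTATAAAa
Myh4, chr11:67237562-67237811, plus strand, with a CArG box, 2 E-boxes and TATAAA at 3 places: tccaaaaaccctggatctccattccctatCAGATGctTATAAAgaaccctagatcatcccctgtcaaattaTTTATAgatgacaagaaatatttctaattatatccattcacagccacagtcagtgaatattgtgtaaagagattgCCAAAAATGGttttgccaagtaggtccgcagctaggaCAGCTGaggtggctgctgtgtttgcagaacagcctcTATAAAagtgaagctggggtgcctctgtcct
Ttn, chr2:76982548-76982797, minus strand, with a MEF2 motif and an E-box: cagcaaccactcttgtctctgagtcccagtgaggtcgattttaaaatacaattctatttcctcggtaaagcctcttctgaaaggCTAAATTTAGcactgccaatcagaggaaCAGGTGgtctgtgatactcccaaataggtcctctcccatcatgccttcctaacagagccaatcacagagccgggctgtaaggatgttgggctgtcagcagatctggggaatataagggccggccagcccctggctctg
Myoz2, chr3:123034988-123035237, minus strand, with a MEF2 motif and 2 E-boxes: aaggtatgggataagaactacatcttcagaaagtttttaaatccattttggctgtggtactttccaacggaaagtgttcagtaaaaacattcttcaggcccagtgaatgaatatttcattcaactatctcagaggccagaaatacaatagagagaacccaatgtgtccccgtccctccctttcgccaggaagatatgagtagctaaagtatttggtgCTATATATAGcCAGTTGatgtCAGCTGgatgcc
Tnnc2, chr2:164779735-164779984, minus strand, with 2 E-boxes: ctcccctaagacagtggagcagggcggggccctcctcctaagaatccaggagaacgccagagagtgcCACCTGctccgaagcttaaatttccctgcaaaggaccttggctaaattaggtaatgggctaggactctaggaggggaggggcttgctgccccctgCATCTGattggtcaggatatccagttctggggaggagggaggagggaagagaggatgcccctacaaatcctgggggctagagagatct
Flnc, chr6:29432903-29433152, plus strand, the first of its 2 windows, with no match: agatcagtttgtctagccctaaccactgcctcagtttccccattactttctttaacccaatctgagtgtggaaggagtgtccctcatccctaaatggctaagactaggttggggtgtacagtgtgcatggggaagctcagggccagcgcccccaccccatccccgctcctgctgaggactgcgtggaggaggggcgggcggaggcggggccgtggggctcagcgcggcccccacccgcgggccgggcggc

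Every myosin heavy chain, the motor of the thick filament, was lower in the aged pools, fast and slow alike. The slow chain Myh7 had the largest difference of the 4 but also the widest spread, at 1.08, 2.32, -1.08 and -3.20, a difference of -3.84 ± 0.82 (14.4-fold, adjusted p = 0.215 with limma). Its aged 2 value was far below that of aged 1, and the difference was -2.79 without aged 2 and -4.90 without aged 1. The fast chain Myh4 of type IIB fibres, whose promoter with its CArG box is printed above, stood at 1.24, 1.43, -2.01 and -0.95 (-2.82 ± 0.48, adjusted p = 0.158 with limma). Myh2, of type IIA fibres, stood at 1.68, 0.67, -0.67 and -2.23 (-2.62 ± 0.66). Myh1, of type IIX fibres, stood at 1.06, 1.43, -1.36 and -1.06 (-2.45 ± 0.38), and its aged pools lay closest together of the 4 genes. In none of the 4 genes did the ages overlap. The 3 fast chains lie in 1 gene cluster on chromosome 11 and are close in sequence, so probes may not part them fully. Myh7 was read by 1 probe set, and the 2 annotated to both Myh7 and Myh6 were left out. Those 2 stood at 0.37, 0.19, -0.19 and -1.46 and at 0.18, 2.03, -0.69 and -0.18. In both, the aged pools lay below the young ones, by less than in Myh7 itself.

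The myosin light chains, which brace the lever arm of the motor, gave 3 genes with the ages apart and 1 with overlapping ages. The fast regulatory chain Mylpf stood at 1.31, 0.78, -0.78 and -1.26 (-2.06 ± 0.41, 4.18-fold lower). The slow and cardiac regulatory chain Myl2 stood at 0.98, 1.07, -0.98 and -2.11 (-2.58 ± 0.49), with aged 2 again the lowest. The fast essential chain Myl1 stood at 1.17, 0.93, -1.17 and -0.93 (-2.10 ± 0.37), and its pools of an age lay within 0.25 of each other. In Myl3, the slow and ventricular essential chain, the ages overlapped. Its values were 0.33, -0.52, 0.43 and -0.81 (-0.10 ± 0.57), and its 3 probe sets differed by -0.70, -0.25 and 0.66. The adjusted p-values of the 3 lower light chains ran from 0.164 to 0.200 with limma.

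Proteins that bind along the thick filament were lower as well. Mybpc2, the fast form of myosin-binding protein C, which links the thick filament to the thin one and tunes contraction, stood at 1.72, 1.09, -1.09 and -3.01 (-3.46 ± 0.70, 11-fold lower). The slow form Mybpc1 stood at 1.28, 1.31, -2.36 and -1.55 (-3.25 ± 0.43, adjusted p = 0.117 with limma), with its 3 probe sets between -3.95 and -2.04. For both genes the ages were far apart, and for Mybpc2 aged 2 lay well below aged 1. The related protein H, Mybph, had the smallest difference of these 3 at 1.05, 0.76, -0.996 and -0.76 (-1.78 ± 0.37). Titin, the giant spring that spans from Z-disc to M-band, stood at 1.67, 1.11, -1.21 and -2.09 (-3.04 ± 0.47, adjusted p = 0.150 with limma), 8.24-fold lower, with no overlap. Its 6 probe sets were all lower but ran from -5.94 to -0.12, the widest range of any member.

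At the M-band, where titin and myosin are crosslinked in the middle of the sarcomere, both myomesins were lower. Myom1 stood at 1.05, 1.17, -1.41 and -1.05 (-2.34 ± 0.37, 5.05-fold) and Myom2, the form typical of fast fibres, at 0.53, 0.86, -0.90 and -0.60 (-1.45 ± 0.38, 2.73-fold). The ages did not overlap in either gene. Of the 4 probe sets of Myom2, 3 differed by between -2.18 and -1.67 and the fourth stood at 0.22.

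In the thin filament, actin and nebulin were strongly lower. The skeletal muscle actin Acta1 stood at 1.30, 1.44, -1.70 and -1.30 (-2.87 ± 0.38, 7.32-fold lower, adjusted p = 0.117 with limma). Nebulin, the molecular ruler that runs along the actin filament, stood at 2.33, 1.77, -1.77 and -2.20 (-4.03 ± 0.41, 16.4-fold lower, adjusted p = 0.0998 with limma). In both genes the gap between the ages was several times the gap between pools of an age. Only 0.110% of all genes had a lower difference than Neb.

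The regulatory proteins of the thin filament, tropomyosin and the troponin complex that makes it respond to calcium, had smaller differences, with a median of -1.46 over 7 genes. The calcium sensor of slow fibres and heart, Tnnc1, stood at 0.93, 1.26, -1.58 and -0.93 (-2.35 ± 0.42). Its fast counterpart Tnnc2 stood at 0.97, 0.56, -0.56 and -1.03 (-1.56 ± 0.40). Fast troponin T, Tnnt3, which anchors the complex to tropomyosin, stood at 1.26, 0.72, -0.72 and -1.35 (-2.03 ± 0.43). In all 3 genes both aged pools lay below both young ones. Fast troponin I, Tnni2, the inhibitory subunit, stood at 0.57, 0.81, -1.04 and -0.50 (-1.46 ± 0.40), with 3 probe sets between -2.60 and -0.38. Tropomyosins lie along actin in many cell types, and their 3 genes had the smallest differences of this group. Tpm2 stood at 0.34, 0.91, -0.47 and -0.83 (-1.27 ± 0.41) and Tpm1 at 0.70, -0.09, -0.37 and -0.51 (-0.74 ± 0.43). Tpm1 differed by -0.35 without young 1 and by -1.14 without young 2. For Tpm3, the slow muscle form that also gives cytoskeletal isoforms, the values were -0.21, 0.46, -0.58 and 0.16 (-0.34 ± 0.46), with overlapping ages.

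The proteins that cap or nucleate the thin filament gave the lowest values of any filament group, with a median of -3.71. Each gene of this group was read by 1 probe set. Members with 1 probe set had a median of -2.68, against -1.45 for those with several. Tropomodulin 4, the skeletal muscle cap of the pointed end, stood at 2.65, 2.09, -2.09 and -2.37 (-4.60 ± 0.40, 24.3-fold lower, adjusted p = 0.0998 with limma). It was the lowest member, and 5 of the 18193 genes were lower still. Leiomodin 2, an actin nucleator of striated muscle, stood at 2.52, 1.998, -1.998 and -2.18 (-4.35 ± 0.39, 20.4-fold lower, adjusted p = 0.0998 with limma). Its relative Lmod3 stood at 1.10, 1.87, -1.10 and -2.07 (-3.07 ± 0.51), with wider gaps inside each age than Tmod4 or Lmod2. Tropomodulin 1, which also caps actin in red blood cells and heart, stood at 1.49, 0.98, -0.98 and -1.88 (-2.67 ± 0.47), the smallest difference of the 4. None of these genes had overlapping ages.

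**Figure D2:**
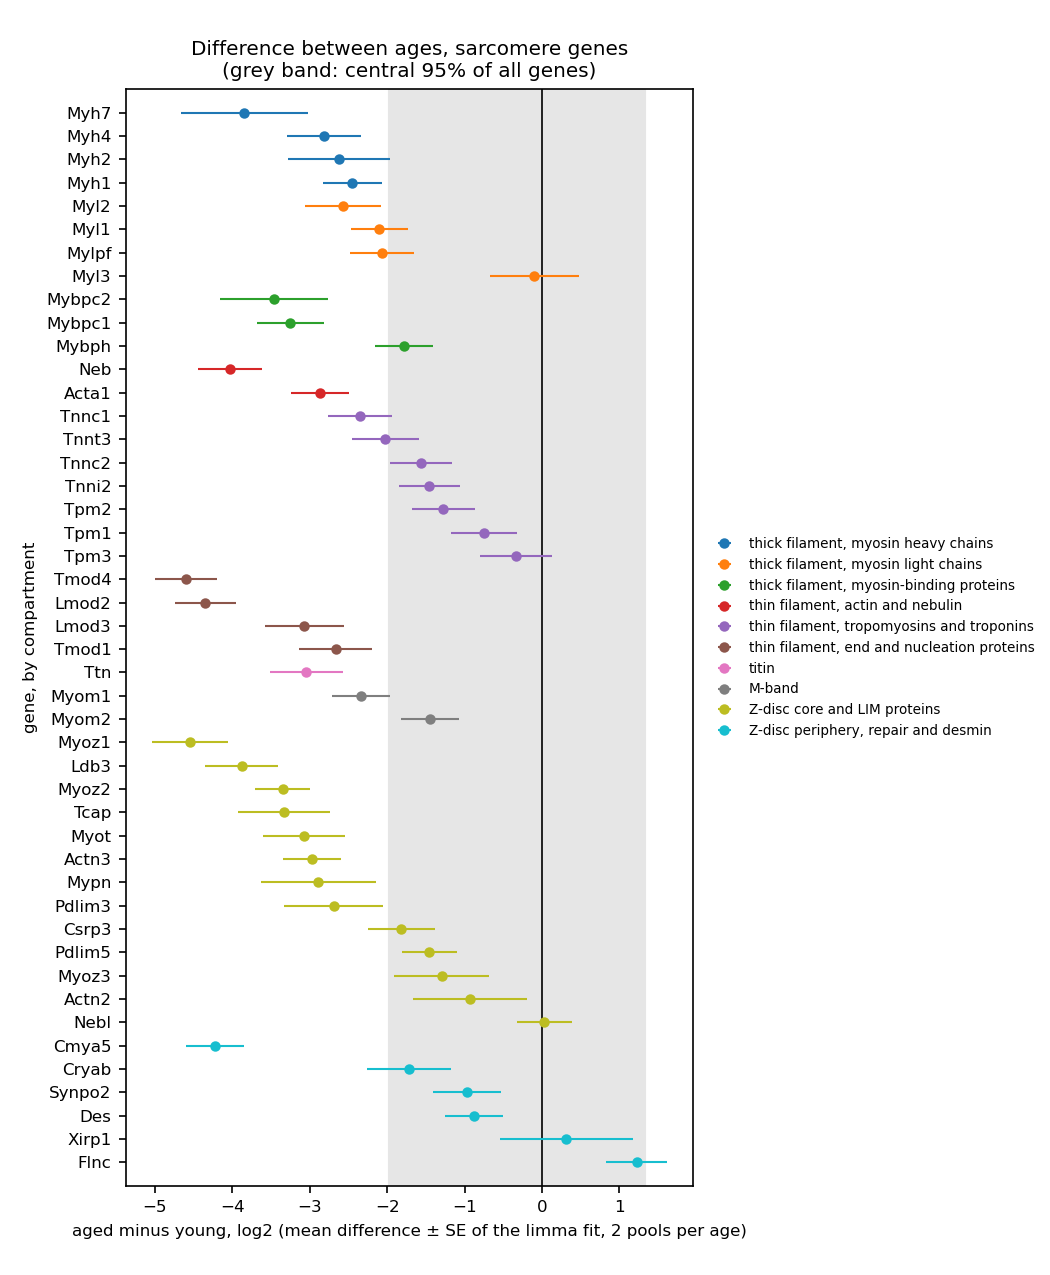
Difference between aged and young pools (log2, point) with the standard error of the limma fit (bar) for each measured sarcomere gene, coloured by compartment; the grey band holds the central 95% of all 18193 genes. Tmod4 and Myoz1 lie lowest, the tropomyosins and most of the Z-disc periphery lie inside the band, and Flnc lies highest at 1.22.

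The core of the Z-disc, the plate in which thin filaments of neighbouring sarcomeres are crosslinked, was lower in 12 of 13 genes, with a median of -2.89. Calsarcins tether the phosphatase calcineurin to the alpha-actinin of the Z-disc. The fast calsarcin Myoz1 stood at 1.87, 2.70, -1.87 and -2.66 (-4.55 ± 0.49, 23.4-fold lower, adjusted p = 0.0998 with limma). The slow and cardiac calsarcin Myoz2, whose promoter carries a MEF2 match, stood at 1.62, 1.82, -1.62 and -1.64 (-3.35 ± 0.36, adjusted p = 0.0998 with limma). Both aged pools of Myoz2 were within 0.02 of each other. The third calsarcin, Myoz3, was lower by less, at 0.81, 0.09, -0.09 and -1.59 (-1.30 ± 0.61), -0.54 without aged 2 and -2.05 without aged 1.

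The 2 sarcomeric alpha-actinins, the crosslinkers of the Z-disc, were unlike. Actn3, which is made in fast fibres, stood at 1.78, 1.37, -1.37 and -1.41 (-2.97 ± 0.38, adjusted p = 0.112 with limma), with the ages well apart. Actn2, made in all fibres and in heart, stood at -0.21, 0.43, -1.86 and 0.21 (-0.93 ± 0.74, adjusted p = 0.835 with limma). For Actn2 the ages overlapped: aged 1 was low and aged 2 lay between the young pools, and without aged 1 the difference was 0.11. That the 2 genes differ was not tested.

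Ldb3, Tcap, Myot and Mypn, 4 other Z-disc genes, were lower, with the ages apart in each. Ldb3, also called cypher or ZASP, a scaffold that binds alpha-actinin, stood at 1.63, 2.67, -1.76 and -1.70 (-3.88 ± 0.47, 14.7-fold lower), and its probe sets differed by -6.07, -3.25 and -2.31. The titin cap Tcap, which ties the ends of 2 titin molecules together, stood at 1.11, 1.95, -2.49 and -1.11 (-3.33 ± 0.60). Myotilin and myopalladin bind alpha-actinin and the filaments it holds. Myot stood at 1.54, 1.13, -1.13 and -2.35 (-3.07 ± 0.53) and Mypn at 1.84, 0.96, -0.49 and -2.49 (-2.89 ± 0.74), both with aged 2 the lowest pool. Without aged 2 the difference of Mypn was -1.89.

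LIM domain proteins of the Z-disc were also lower. Pdlim3 stood at 0.73, 1.68, -2.23 and -0.73 (-2.69 ± 0.64), with aged 1 far below aged 2. Csrp3, the muscle LIM protein, stood at 0.65, 1.45, -0.88 and -0.65 (-1.82 ± 0.43) and Pdlim5, which is made in many tissues, at 0.69, 0.62, -0.77 and -0.83 (-1.45 ± 0.36). The ages did not overlap in these 3 genes. Nebulette, the small relative of nebulin best known from heart, gave no difference beyond its error: Nebl stood at 0.19, -0.02, 0.07 and 0.17 (0.03 ± 0.36), with overlapping ages.

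Around the Z-disc the 6 measured genes went separate ways, with a median of -0.92 that became -3.12 when each gene was read by the probe set with the greatest spread. Cmya5, or myospryn, a large desmin-binding protein, stood at 2.24, 1.99, -2.23 and -1.99 (-4.23 ± 0.37, 18.7-fold lower, adjusted p = 0.0998 with limma). Cryab, the small heat shock protein that protects desmin, stood at 0.57, 0.50, -0.50 and -1.87 (-1.72 ± 0.54), with aged 2 far below aged 1, and differed by -1.04 without aged 2. The probe sets of Cryab differed by -3.35, -2.02 and 0.20. Desmin, the intermediate filament that links neighbouring Z-discs, had Des at 0.28, 0.54, -0.64 and -0.29 (-0.88 ± 0.38). Synpo2, an actin-binding protein of the Z-disc that smooth muscle also makes, stood at 0.59, 0.65, -0.79 and 0.08 (-0.97 ± 0.44), and differed by -0.54 without aged 1. In these 4 genes the ages did not overlap, but for Des and Synpo2 the unadjusted p was 0.0628 and 0.0732 with limma.

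Flnc and Xirp1 were the members with a positive difference in this group. Filamin C, the muscle form of the actin crosslinker filamin, recruited to sites of fibre damage, had Flnc at -0.73, -0.56, 0.30 and 0.86 (1.22 ± 0.39, 2.34-fold higher, adjusted p = 0.423 with limma). It was the 1 member with both aged pools above both young ones, where 19.9% of all genes had that pattern. Both its probe sets were higher, by 1.79 and 0.66. Xirp1, a filamin C partner in damaged and developing fibres, stood at 0.60, -0.60, -0.84 and 1.47 (0.32 ± 0.86), and its aged pools were the lowest and the highest of the 4.

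Fast and slow isoforms were both lower in the aged pools, and the classes were not tested against each other. All 12 fast isoforms were lower, with a median of -2.28, and all 7 slow isoforms were lower, with a median of -2.58; the slow values ran from -3.84 in Myh7 to -0.10 in Myl3 and the fast ones from -4.55 in Myoz1 to -1.30 in Myoz3. Both aged pools were below both young pools in 12 of 12 fast and 5 of 7 slow genes, where 16.9% of all genes had that order. The classes and pairs hold members of the set only. The slow troponins Tnni1 (-1.46 ± 1.26, with overlapping ages) and Tnnt1 (-2.61 ± 0.49, with the ages apart) lie outside it. Troponins I and T were therefore not paired. Setting 1 gene of a pair against the other inside each array removes any shift of the whole array, and 7 pairs were read in this way with no test. Fast minus slow was on average higher in the aged pools in the heavy chains (Myh4 against Myh7, by 1.03, although aged 1 at -0.93 was the lowest of the 4 pools and aged 2 at 2.25 the highest), troponins C (Tnnc2 against Tnnc1, by 0.79) and regulatory light chains (Mylpf against Myl2, by 0.51). It was lower in the essential light chains (Myl1 against Myl3, at -2.0), the calsarcins (Myoz1 against Myoz2, at -1.20), tropomyosins (Tpm1 against Tpm3, at -0.41) and myosin-binding proteins C (Mybpc2 against Mybpc1, at -0.21). Tpm1 is not among the 12 fast isoforms, so the tropomyosin pair is not strictly fast against slow. The ages were apart in the essential light chains and the calsarcins and overlapped in the other 5 pairs. The 4 values of Myl1 minus Myl3 were 0.839, 1.45, -1.60 and -0.119, and those of Myoz1 minus Myoz2 were 0.247, 0.877, -0.247 and -1.02. Both pairs therefore had lower values in each aged pool, with Myl1 at -2.10 against Myl3 at -0.10 in the first pair.

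**Figure D3:**
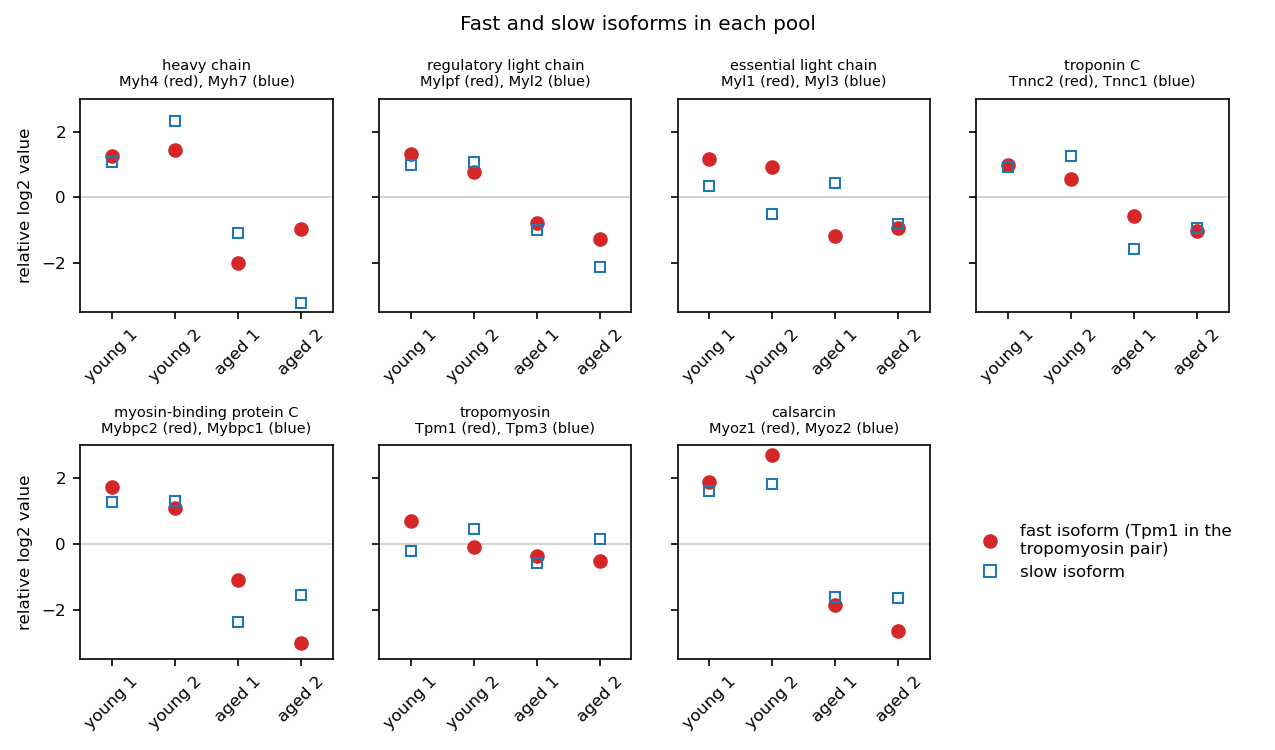
Relative log2 value of the fast (red circles) and slow (blue squares) gene of 7 pairs in each of the 4 pools. The tropomyosin pair sets Tpm1 (red circles), which is not classed as fast, against the slow Tpm3. Both genes of a pair are lower in the aged pools in 5 of the 7 panels, while the ages overlap for Myl3 and Tpm3.

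Genes with a role beyond striated muscle had the smaller median difference, again with no test between the classes. The median was -1.12 over the 10 members listed as also made in smooth muscle, blood or other cells (Tpm1, Tpm2, Tpm3, Tmod1, Nebl, Pdlim3, Pdlim5, Synpo2, Cryab and Des), and -2.72 over the other 36. In the first class 5 of 10 were lower at an unadjusted p under 0.05, in the second 31 of 36, where 6.19% of all genes were. The members with several probe sets had a median of -1.45 (20 genes) and those with 1 probe set -2.68 (26 genes), so averaging over probe sets moved along with breadth, as 8 of the 10 broad genes have several.

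Probe sets of the same gene often disagreed, and for some members the choice of probe set set the size of the difference. Among the 20 members with several probe sets, 4 had probe sets that were more than 4 apart in their differences (20.0%, against 1.41% of 9010 genes with several probe sets): Ttn, Des, Pdlim5 and Synpo2. These shares were not matched for the size of the difference or the number of probe sets, and both can widen such a range. Probe sets on both sides of 0 were found in 8 of the 20 members, or 40.0%, against 57.4% of such genes. Of the 93 probe sets 79 were lower and 14 higher, against 16526 lower and 18409 higher of the 34945 probe sets of all genes. What part of a transcript each probe set reads was not examined.

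Desmin showed the sharpest split. Its first probe set stood at 0.979, 1.48, -2.64 and -0.979, a difference of -3.04 ± 0.69, and the second at -0.409, -0.404, 1.36 and 0.404, a difference of 1.29 ± 0.50. The gene value of -0.88 is the mean of those 2 and describes neither. In Synpo2, 2 probe sets differed by -3.20 ± 0.44 and -2.52 ± 0.44, with the ages apart, and the other 2 stood at 0.90 ± 0.49 and 0.93 ± 0.91. One probe set of Pdlim5 stood at 2.30, 1.82, -1.82 and -2.92, a difference of -4.42 ± 0.55. Of the other 6, 1 differed by -2.41 ± 0.39, with the ages apart, and 5 lay between -1.20 and -0.20. Likewise 1 probe set of Tpm1 differed by -1.94 ± 0.46 and another stood at 0.73 ± 0.74. The lowest probe sets of all members were those of Ldb3 (-6.07 ± 0.42, with values of 2.89, 3.36, -2.99 and -2.89) and Ttn (-5.94 ± 0.73).

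**Figure D4:**
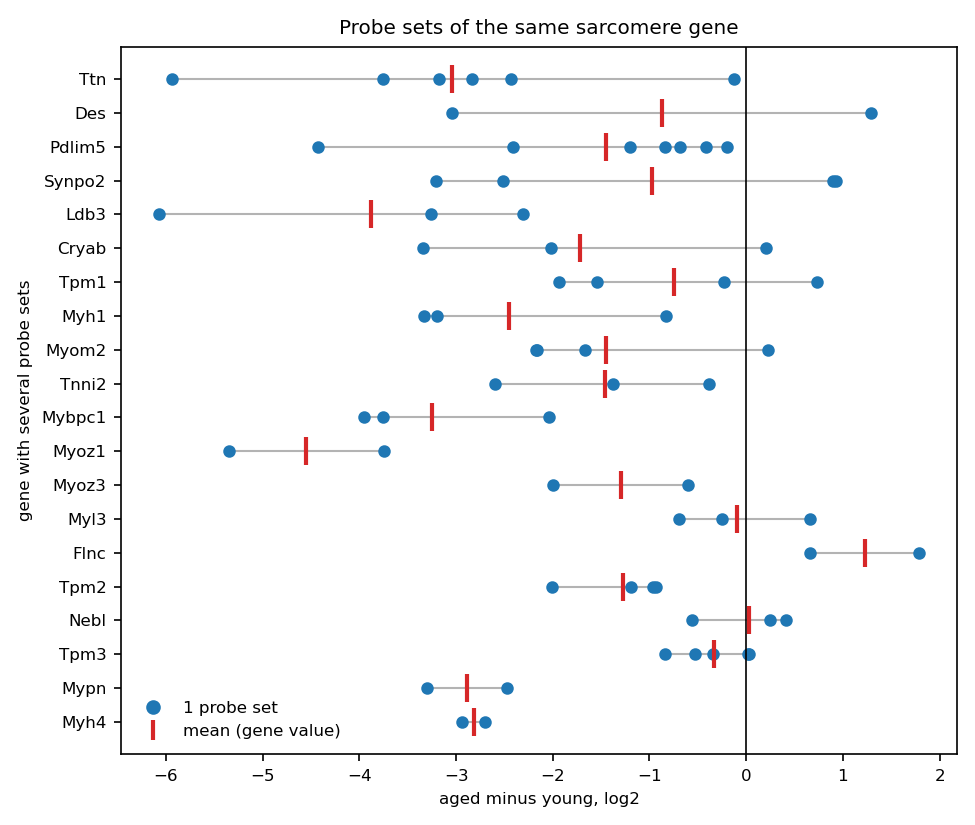
Difference between ages (log2) of each probe set (blue points) of the 20 sarcomere genes with several probe sets, joined by a grey line, with the gene's mean as a red bar. Ttn, Des, Pdlim5 and Synpo2 span more than 4, and Des has 1 probe set on each side of 0.

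Sarcomere genes outside the set were mostly lower as well, and the cytoskeletal relatives of its members were not. Of 35 further genes of the sarcomere and its assembly, 32 were measured. Of these 28 were lower (46.2% of all genes), 16 of them at an unadjusted p under 0.05 (6.19% of all genes). None was higher at an unadjusted p under 0.05 (2.85% of all genes). With limma 0 passed the adjusted threshold of 0.05, and the median was -1.39. The lowest were the cardiac actin Actc1 (-5.36 ± 0.56), the muscle ubiquitin ligase Trim63 (-5.30 ± 0.52) and Cap2, an actin-regulating protein (-3.90 ± 0.48). The highest were the cardiac myosin-binding protein Mybpc3 (0.59 ± 0.40), the obscurin relative Obsl1 (0.56 ± 0.40) and Ankrd1, a titin-binding ankyrin repeat protein induced by stretch (0.52 ± 0.56).

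The counterparts are the actins, actinins, myosins, tropomyosins and filamins of smooth muscle and non-muscle cells, and the small proteins that go with them. Of 32 measured, 21 were higher and 11 lower (46.2% of all genes), with a median of 0.22. At an unadjusted p under 0.05, 2 were higher (2.85% of all genes) and 0 lower (6.19% of all genes). With limma 0 passed the adjusted threshold. The highest were the smooth muscle light chain Myl9 (3.502 ± 1.21, with aged 1 at 0.52 and aged 2 at 4.12), the non-muscle tropomyosin Tpm4 (1.79 ± 0.61) and the smooth muscle heavy chain Myh11 (1.60 ± 0.72). The lowest were the non-muscle alpha-actinin Actn4 (-1.64 ± 0.67), the enteric smooth muscle actin Actg2 (-0.68 ± 0.45) and the non-muscle heavy chain Myh10 (-0.56 ± 0.48). Set side by side, Acta1 differed by -2.87 and the cytoskeletal actins Actb and Actg1 by 0.21 ± 0.38 and 0.28 ± 0.38. Whether the lists differ from each other was not tested.

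**Figure D5:**
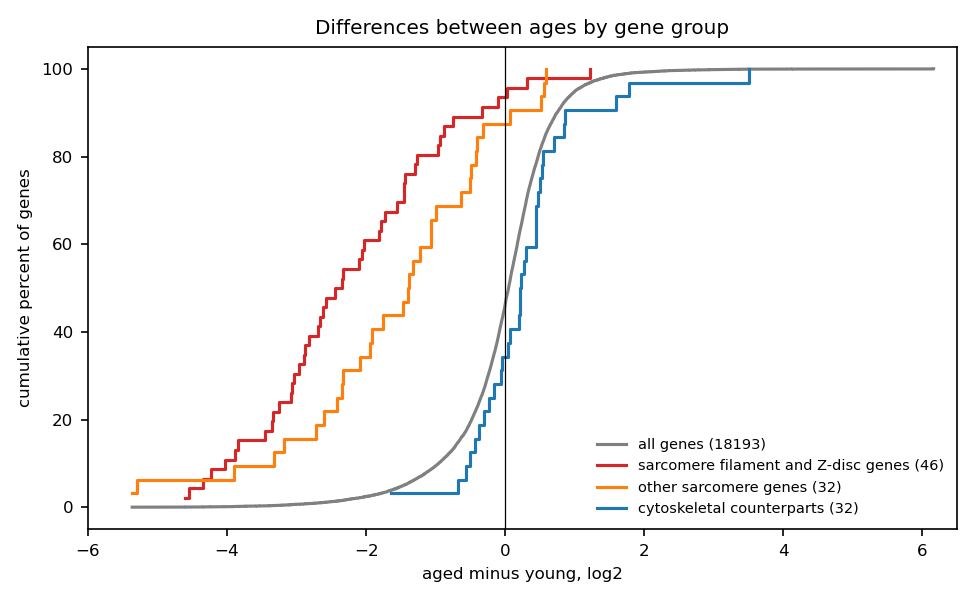
Cumulative percent of genes at or below a given difference between aged and young pools (log2) for all 18193 genes (grey), the 46 sarcomere filament and Z-disc genes (red), 32 other sarcomere genes (orange) and 32 cytoskeletal counterparts (blue). The red curve crosses 50% near its median of -2.40 and the blue one near 0.22.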

How the data were processed

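The authors deposited 1 table of 45101 probe sets for 4 arrays. Its values are taken as log2. Each probe set has a median of 0 over the arrays within 5e-07, so the deposited log2 values are centred. Not given in the sources used here: log base, background correction, probe summary and normalization.

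GEO's platform annotation gave each probe set its gene, and the RefSeq GRCm38.p6 table gave the current symbol by Entrez ID (34741 matched). Probe sets with several symbols (932), none (9160) or for controls (64) were left out. A gene is the mean of its probe sets (9183 of 18193 genes have 1). The age difference was fitted by limma 3.58.1 under R 4.3.3 (lmFit, eBayes, two-sided, 2 residual and 3.56 prior degrees of freedom). P-values were adjusted by Benjamini-Hochberg over all 18193 genes. The 4 arrays limit the precision. The procedure was tested on simulated data. Figures were drawn with matplotlib 3.10.9.

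The members, lists and alternatives were chosen with earlier results of these data known. Named genes were, per compartment, the 2 largest and the smallest differences, those higher or overlapping, the isoform pairs and 8 central genes; of the further lists, the 3 lowest and 3 highest. Other members are also given. Ryr1, Pax7, Sdc4, Xist, Actb and Actg1 were named outside this rule, after their values were seen. Same-numbered pools correlated at 0.138 in their deviations from the age means, and the labels do not pair them. P-values rest on the spread between pools, which the labels call biological replicates. Limma draws each gene's spread toward a value shared over all genes, which had the larger weight (3.56 prior against 2 residual degrees of freedom). The alternatives were another normalization, other rules for several probe sets, a variance trend, the replicate block and leaving out each pool.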

Additional observations from a re-analysis of the deposited data

How the results depend on the processing

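The 43 lower members were 41 to 45 under the 10 alternatives run, the 36 members lower at an unadjusted p under 0.05 were 31 to 38, and the count of 0 genes past the adjusted threshold stayed 0 in 9 of them. With a variance trend on the mean of the centred values, which is no expression level, 221 genes and 20 members passed, and 29 members had an adjusted p under 0.10. The 6 members with an adjusted p under 0.10 became 4 with quantile normalization and 0 with the most variable probe set of each gene, with the median of probe sets, when _x_at and _s_at probe sets were dropped, with the replicate block, and without any 1 replicate (0 to 0). The median of the members was -2.31 with quantile normalization, -2.78 with the most variable probe set and -2.40 to -2.11 without 1 replicate. The replicate block (the pool number, which the labels do not say is a pairing) left the median at -2.40 and gave 37 members lower at an unadjusted p under 0.05. The median of the Z-disc periphery was -3.12 with the most variable probe set. Directions turned in Myl3 (0.66 when _x_at and _s_at probe sets were dropped; -0.72 to 0.52 without 1 replicate), Nebl (-0.56 with the most variable probe set, -0.13 with the median of probe sets; -0.071 to 0.14 without 1 replicate), Tpm3 (-0.71 to 0.036), Actn2 (-1.97 to 0.11) and Xirp1 (-0.84 to 1.47), the last 3 without 1 replicate; the causes were not tested. A filter on dim probe sets was not run, since centred values carry no level. Signal over background is not known, so a small difference in a dim gene cannot be told from one in a bright gene.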
